A study of Arabidopsis thaliana with 24 samples.

Results

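The pkl mutant was compared with wild type in germinating Arabidopsis thaliana seeds in which gibberellin synthesis was held back by uniconazole. The comparison set 6 arrays of pkl with uniconazole against 6 arrays of wild type with uniconazole, chosen by their labels from 24 Affymetrix ATH1 arrays. Such an array reads each transcript, or a few close relatives together, through a probe set of several short oligonucleotides. In the pkl group the mutant germinated on medium that held uniconazole at 10 nM and methanol, its solvent, at 0.01%, and in the wild-type group Columbia seeds germinated on the same medium. The other 12 arrays, 6 of pkl and 6 of wild type with 0.01% methanol only, served to show where the genotype difference was another one without the inhibitor. All groups shared continuous light and an agar medium with Murashige and Skoog salts. The labels call the 6 samples of a group biological replicates and give neither the pkl allele, its background, nor the hours from sowing to harvest.

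PICKLE is a chromatin remodelling protein of the CHD3 class that, in Arabidopsis, helps to keep embryonic genes silent once a seed germinates. Gibberellin promotes germination by binding GID1 receptors, which leads, through the F-box protein SLY1, to the breakdown of DELLA repressors. Uniconazole, a triazole growth retardant, blocks an early oxidation step of gibberellin synthesis, and it is known to make the embryonic traits of pkl seedlings more frequent. The question was therefore which transcripts separate the genotypes when gibberellin is scarce. This includes the many genes on the array that the annotation used here lists only by a locus code. PKL itself was not analysed here, and the genotype labels were not checked against it.

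Values are MAS5 signals on the deposited linear scale, where every array had been brought to the same trimmed mean. Log2 changes are pkl minus wild type on log2(signal + 16), a scale that understates the change of dim probe sets, with standard errors and Benjamini-Hochberg adjusted p-values from 1 limma fit over 22746 probe sets. A probe set was called when its adjusted p was under 0.05. The bacterial control level, 54.9, is the 95th percentile of the signals of 27 probe sets for transcripts that plants do not make, and a fold against a group mean at or under it is given as a lower bound. The median signal of an array was 364.57 ± 5.41 over the pkl arrays and 344.49 ± 18.49 over those of wild type (SD of 6 arrays each). A two-sided exact permutation test of this difference gave p = 0.00649, or 0.0325 when adjusted over 5 array measures. Wild-type replicate 2 had a median of 310.25, against 340.35 to 360.45 on the other wild-type arrays. The share of signals under 16 and the 3′/5′ ratios of GAPDH, actin and ubiquitin did not pass (exact permutation adjusted p between 0.557 and 0.673). ICL, isocitrate lyase of the glyoxylate cycle by which seedlings turn stored oil into sugar, had signals of 32618, 36094 and 39515 (lowest, median, highest) in pkl and 33072, 36686 and 45622 in wild type, so both groups carried this transcript of germinating oilseeds at a high level.

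With uniconazole 2246 probe sets were higher in pkl than in wild type (9.87% of all tested) and 1976 were lower (8.69%). The median change of all probe sets was 0.04 on the log2 scale, and its sign depended on scaling, with -0.03 for arrays scaled to one median and -0.01 after quantile normalization. Most differences were small. Of the 4222 called, 481 (2.11% of all tested) changed 2-fold or more on that scale (a log2 change of 1), 342 upwards and 139 downwards, and with an offset of 64 in place of 16 there were 241. The division between higher and lower depended on scaling, since arrays scaled to one median gave 1570 higher and 2832 lower. The 6 pkl arrays all lay above the 6 wild-type arrays for 1125 probe sets (4.95%) and all below them for 921 (4.05%), 8.99% in all. The share called grew with signal. Among probe sets whose brighter group mean was at most 54.9 it was 1.46%, and above 5000 it was 35.4%. The shares of all probe sets given below beside lists of bright genes are thus lower than those at the same signal.

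Genes that the annotation used here lists only by a locus code, called locus-only, made up 11933 of the 13513 probe sets paired with 1 gene. Of these 1097 were higher and 792 lower in pkl, 15.8% in all, against 18.6% of all probe sets tested. A locus-only gene can have other names, such as the synonyms of AT5G48570 given below. The 1580 probe sets of genes with a symbol had 203 higher and 154 lower, 22.6% in all. Among the 1097 that rose, 17 changed by 2 or more on the log2 scale and 155 by 1 to 2, and their median change in size was 0.52. Among the 792 that fell, 4 changed by 2 or more and 56 by 1 to 2, with a median size of 0.37. In 873 of these called probe sets the 2 groups did not overlap, beside 1954 of the 4222 called among all probe sets. Of 989 probe sets of annotated pseudogenes 23 were higher and 4 lower, 2.73% in all.

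The greatest change of any named gene was a fall. AT2G43860 had a mean signal of 10.0 ± 4.37 in pkl (SD, n = 6; lowest 5, median 9.75), against a lowest, median and highest signal of 296, 459 and 828 in wild type. Every pkl array was thus below the bacterial control level and every wild-type array far above it. The log2 change was -4.27 ± 0.25 (SE, adjusted p = 1.61e-12), at least 9.64-fold lower in pkl. Falls from bright wild-type signals were seen in AT1G29080 and AT1G49470. AT1G29080 had 253, 437 and 637 in pkl and 1461, 1939 and 3338 in wild type, a log2 change of -2.23 ± 0.19 (adjusted p = 2.80e-09). AT1G49470 had 719, 829 and 1234 in pkl and 3043, 3656 and 6245 in wild type (-2.17 ± 0.17, adjusted p = 4.86e-10). In both genes the brightest pkl array was dimmer than the dimmest wild-type array, as the rule for naming them required.

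AT5G48570 is listed by RefSeq with the synonyms FKBP65 and ROF2, a peptidyl-prolyl isomerase of the FKBP family that is known from the heat stress response. It had 21.7, 32.7 and 49.7 in pkl and 142, 201 and 229.5 in wild type, at least 3.44-fold lower in pkl (log2 change -2.06 ± 0.24, adjusted p = 4.44e-07). A group of dimmer genes crossed the bacterial control level in the same direction. Their pkl means were under 54.9, so folds are bounds. AT1G44050 was at least 3.53-fold, AT5G05420 at least 3.34-fold, AT3G15650 at least 2.22-fold, AT1G12080 at least 2.00-fold and AT1G64405 at least 1.52-fold lower in pkl, with log2 changes between -1.88 and -1.38. In AT1G44050 the lowest pkl signal, 7.9, came from 1 array, and the other 5 lay between 45.2 and 76.6. The last of the 12 named locus-only genes that fell were AT3G05600 (-1.43), AT4G33180 (-1.34) and AT1G72800 (-1.32), whose groups were both above the bacterial control level.

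Upwards, AT1G21520 had the highest log2 change of the locus-only genes, but against wild-type signals that allow only a bound. Its signals were 205, 281 and 371 in pkl and 7.8, 26.1 and 44.2 in wild type, so that all 6 wild-type arrays were below the bacterial control level. It was at least 5.31-fold higher in pkl (log2 change 2.96 ± 0.24, adjusted p = 6.68e-10). AT2G22590, with 227, 362 and 582 in pkl and 14.7, 48.1 and 119 in wild type, was at least 6.83-fold higher, and here 2 wild-type arrays reached above the level. AT1G62530 was dimmer, with 87.4, 126 and 185 in pkl and 4.7, 12.3 and 48.4 in wild type, at least 2.40-fold higher.

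The remaining 9 named rises had both group means above the bacterial control level. AT3G23060 had 589, 701 and 912 in pkl and 53.2, 95 and 149 in wild type, a log2 change of 2.72 ± 0.26 (adjusted p = 1.35e-08). AT3G61930 had 687, 911 and 1119.5 in pkl and 65.3, 134 and 182 in wild type (2.63 ± 0.33, adjusted p = 1.52e-06). AT2G29340 had 1211, 1335 and 1650.4 in pkl and 174, 218 and 295 in wild type (2.59 ± 0.13, adjusted p = 7.92e-14). In these the dimmest pkl array exceeded the brightest wild-type array, as the rule for naming them required. Their wild-type signals were low. AT5G62210 had 1274, 1949 and 2499 in pkl against 258, 306 and 434 in wild type. AT1G47980 had 1217, 1517 and 1872 in pkl against 201, 278 and 436 in wild type. AT1G14930 had 1259.5, 1468 and 1767 in pkl against 241, 302 and 544 in wild type. Their log2 changes were 2.44, 2.36 and 2.1013. AT5G45690 (2.47), AT4G33730 (2.37) and AT4G24130 (2.11) complete the 12, and of these AT4G33730 varied most among wild-type arrays, between 8.3 and 166.

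**Figure D1:**
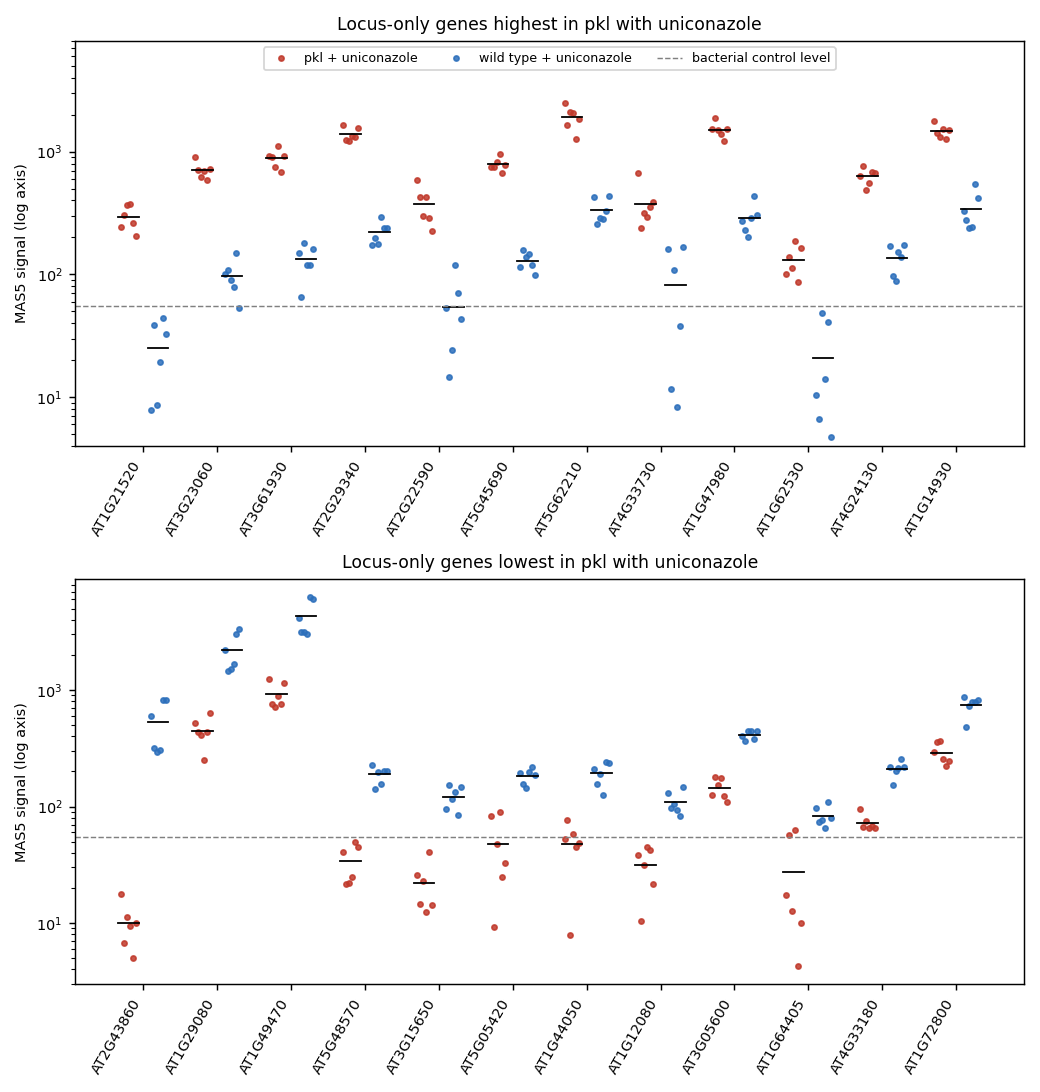
MAS5 signals (log axis) of the 12 locus-only genes that rose most (upper panel) and the 12 that fell most (lower panel) in pkl with uniconazole against wild type with uniconazole. Points are the 6 arrays of a group, black bars the group means and the dashed line the bacterial control level of 54.9. The groups do not overlap in any of the 24 genes, as the rule for naming them required, and AT1G21520 and AT2G43860 are among those with all arrays of 1 genotype below the dashed line.

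Some locus-only genes combined a large change with an abundant transcript. AT1G52100 had 7116, 7548 and 8142 in pkl and 1542, 1692 and 2271 in wild type, a log2 change of 2.0985 ± 0.13 (adjusted p = 4.06e-12). AT1G54870 had 4371, 4769 and 7539 in pkl and 1093, 1462 and 1838 in wild type (1.90 ± 0.16). AT5G46230 had 3095, 4031 and 4649 in pkl and 916, 1118 and 1179.8 in wild type (1.86 ± 0.10). AT5G10120 had 3251, 3459.8 and 3840.4 in pkl and 1000.2, 1279 and 1737 in wild type (1.43 ± 0.12). Among abundant transcripts that fell, AT1G49470 is given above. scpl44, a serine carboxypeptidase-like gene, had 1232, 1523 and 1598 in pkl and 4824, 6487 and 6927 in wild type (-2.08 ± 0.10). AT2G18980 had 858, 1270.2 and 1656 in pkl and 1714, 2833 and 3379.7 in wild type (-1.16 ± 0.16). AT4G18970 had 1749.7, 2265 and 2684 in pkl and 4238, 4506 and 5434 in wild type (-1.10 ± 0.11). The related gene scpl48 had 2484, 3397 and 3689.9 in pkl and 5293, 6239.9 and 8202 in wild type (-1.01 ± 0.12).

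In 37 called probe sets whose groups did not overlap the pkl mean was above the bacterial control level and the wild-type mean was not, and in 22 the reverse held. Paired with 1 gene were 25 of the first kind, 23 of them locus-only, and 13 of the second, 12 of them locus-only. The bounds were small in most, with a median of 1.77-fold for the first kind and 2.02-fold for the second. The highest were 6.83-fold for AT2G22590 and 9.64-fold for AT2G43860. ALPHA-VPE, a vacuolar processing protease, and ATL5, a RING-type gene, were the 2 genes with a symbol of the first kind, and ECS1 was the 1 of the second. These kinds go by group means, and single wild-type arrays reached 98.3 for ALPHA-VPE and 89 for ATL5.

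Seed reserve genes that passed were higher in pkl. The gene lists here and below were chosen with earlier results of these data known, so their counts are descriptions and not tests. A listed gene counts as named on the array where the annotation used here pairs a probe set with it alone. Vicilin-like and 12S or 2S storage proteins are laid down in the maturing embryo and broken down after germination. Of 13 listed storage protein genes 5 were named on the array, and 4 rose and 1 did not pass (9.87% of all probe sets rose), with a median change of 1.11 against 0.04 for all probe sets. PAP85, a vicilin-like protein, had 2024, 2415 and 3089 in pkl and 216, 291 and 412 in wild type, a log2 change of 2.95 ± 0.14 (adjusted p = 2.25e-14). AT2G28490 had 4277, 4857 and 7051 in pkl and 1167, 1649 and 2042 in wild type (1.67 ± 0.12). AT4G36700 had 4512, 5426 and 5988 in pkl and 1964, 2392 and 3188 in wild type (1.11 ± 0.14). The groups did not overlap in these 3. AT1G03890 was near the bacterial control level, with 59.4, 77.2 and 108 in pkl and 7, 27.9 and 81.8 in wild type (1.05 ± 0.33, adjusted p = 0.0237), and it lost its call without wild-type replicate 2, 3 or 6 or pkl replicate 6 (0.84 to 0.98). AT2G18540, at 71.5, 83.3 and 148 in pkl and 65.9, 79.2 and 107 in wild type, differed by 0.09 and did not pass. In whole germinating seeds more cells of a kind and more RNA per cell cannot be told apart.

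Oil bodies, the stores of seed oil, are coated by oleosins. Both oil body genes named on the array, of 8 listed, were higher, beside 9.87% of all probe sets. AT3G01570 had 8049, 8949.9 and 9705 in pkl and 4467, 5042 and 6361 in wild type (0.78 ± 0.11, adjusted p = 1.26e-05), without overlap. OLEO3, an oleosin, had 4215, 4748 and 4914 in pkl and 3439, 3666 and 4505 in wild type (0.29 ± 0.10, adjusted p = 0.0357), and its groups overlapped. With arrays scaled to one median OLEO3 did not pass (0.21, adjusted p = 0.214), nor when pkl replicate 2, 3, 4 or 5 or wild-type replicate 1, 3, 5 or 6 was left out (0.26 to 0.29).

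Late embryogenesis abundant proteins protect the embryo as it dries. Of 28 listed genes 19 were named. Their median change was 0.36, with 11 higher in pkl, 0 lower and 8 that did not pass, beside 9.87% of all probe sets higher. Every pkl array lay above every wild-type array in 5 of the 19, beside 4.95% of all probe sets in that direction. M10 had 293, 408 and 628 in pkl and 26.8, 35 and 121 in wild type (2.74 ± 0.30, adjusted p = 1.99e-07). The dehydrin LTI30 had 1009, 1328 and 1541 in pkl and 288, 384 and 522 in wild type (1.71 ± 0.17). AT4G36600 with 1939.9, 2537 and 2653 in pkl and 1069, 1362 and 1926 in wild type (0.77 ± 0.13), and AT3G17520 with 8648, 9410.1 and 11430.4 in pkl and 4901, 6441 and 7977 in wild type (0.59 ± 0.14) were brighter genes with smaller changes. The brightest, LEA18 (0.36) and AT3G15670 (0.29), rose slightly, while AT3G02480 (0.10) and LEA4-5 (0.22) did not pass. COR15A passed at 0.94 with both group means under the bacterial control level, so no fold is given, and it lost its call without pkl replicate 4 or 5 (0.82 and 0.83). With arrays scaled to one median 7 were called, and without pkl replicate 4 likewise 7. LEA (AT2G21490), a dehydrin-family gene outside the list, is described with the comparison across media.

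Vacuolar processing enzymes cut storage proteins to their mature form. Of 4 named, ALPHA-VPE (2.06, at least 3.59-fold), DELTA-VPE (0.51) and BETA-VPE (0.39) were higher in pkl, and GAMMA-VPE differed by -0.07 and did not pass. Beside the counts in this paragraph, 9.87% of all probe sets were higher in pkl. DELTA-VPE lost its call without pkl replicate 1, 3, 4 or 6 or wild-type replicate 2 or 3 (0.38 to 0.50), and with arrays scaled to one median (0.43). BETA-VPE had 6609.7, 6813 and 7411 in pkl and 4546, 5279 and 5812 in wild type, without overlap. Of 19 listed regulators of embryo and seed development 4 were named. EEL, a bZIP factor of maturing seeds, had 299, 375 and 412 in pkl and 223, 268 and 294 in wild type (0.44 ± 0.14, adjusted p = 0.0249) and passed alone. It did not pass with arrays scaled to one median (0.37, adjusted p = 0.0544) or after quantile normalization (0.35, adjusted p = 0.059), or when pkl replicate 3 or 4 or wild-type replicate 2 or 6 was left out. AGL18 (-0.08), BZIP53 (-0.11) and BBM did not pass, and BBM was under the bacterial control level on every array. Of 3 genes of reserve mobilisation AIM1, a multifunctional protein of fatty acid beta-oxidation, rose by 0.32, while ICL (-0.04) and the oil lipase gene SDP1 (-0.15) did not pass.

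**Figure D2:**
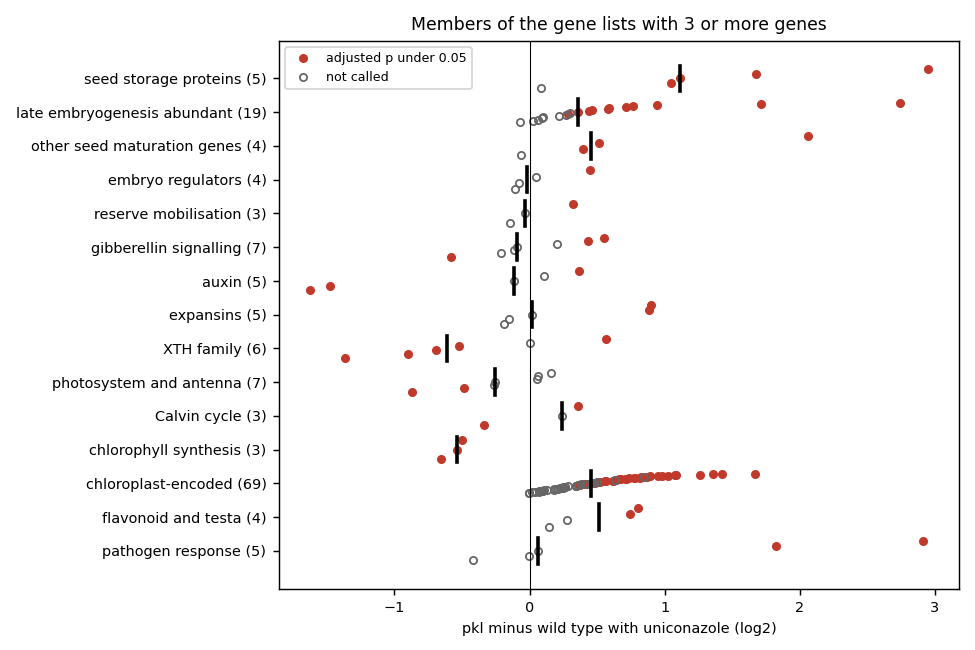
Log2 change, pkl minus wild type with uniconazole, of each member of the gene lists with at least 3 named genes (number in brackets). Filled points passed at an adjusted p under 0.05, open points did not, and vertical bars are list medians. The called members of the storage protein, late embryogenesis abundant and chloroplast-encoded lists lie to the right of 0, and those of chlorophyll synthesis to the left.

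Of 7 gibberellin signalling genes 3 were called. GID1A, a gibberellin receptor, had 2176, 2311 and 2549 in pkl and 1484, 1589 and 1668 in wild type (0.55 ± 0.07, adjusted p = 1.49e-06). SLY1 had 1722, 1815 and 1869 in pkl and 1223, 1339 and 1404 in wild type (0.43 ± 0.07, adjusted p = 7.58e-05). The groups did not overlap in GID1A or SLY1. The receptor GID1B had 337, 431 and 524 in pkl and 434, 650.0 and 759 in wild type (-0.58 ± 0.17, adjusted p = 0.014), lower with overlapping ranges. GID1C (0.20), SLY2 (-0.22), SPY (-0.11) and XERICO (-0.09) did not pass, so 2 rose and 1 fell, beside 18.6% called among all probe sets and 34.0% among those whose brighter mean was between 1000 and 5000. Enzymes that make or inactivate gibberellin, abscisic acid genes, seed heat shock proteins, seed lipid synthesis, endosperm markers and mitochondrion-encoded genes had 0 members named, so nothing is given for them. The annotation leaves 8730 probe sets unlisted, so such genes may be on the array without being named here. Of 5 named auxin genes 2 fell, 1 rose and 2 did not pass, beside 8.69% of all probe sets lower and 9.87% higher. The groups overlapped in all 5. The called genes are of the GH3 family, which joins auxin to amino acids. GH3.3 had 33.6, 52.9 and 98.4 in pkl and 97.9, 216 and 295 in wild type (-1.63 ± 0.28, adjusted p = 1.40e-04). GH3.1 had 8.1, 16.6 and 30.7 in pkl and 23.3, 90.8 and 139 in wild type (-1.48 ± 0.33, at least 1.56-fold lower in pkl). WES1, also of the GH3 family, rose by 0.36.

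Xyloglucan endotransglucosylase/hydrolases cut and rejoin wall xyloglucan as cells grow. Of 6 named, 4 fell, 1 rose and 1 missed the threshold, beside 8.69% of all probe sets lower and 9.87% higher. The median change was -0.61. XTH32 had 393, 507 and 638 in pkl and 958, 1461 and 1882 in wild type (-1.37 ± 0.14). XTH19 had 1435, 2082 and 2752 in pkl and 3489.6, 3798 and 4528 in wild type (-0.90 ± 0.12). XTH16 had 2358, 2971 and 3393 in pkl and 3848, 4251 and 4670.1 in wild type (-0.53 ± 0.07). The groups overlapped in none of these 3. XTH20 fell by 0.69 and XTH33 rose by 0.56, both with overlap. XTH33 lost its call without pkl replicate 6 or wild-type replicate 2 (0.46 in both cases). Expansins loosen the wall, and EXPA7 and EXPA18 do so in root hairs. EXPA18 had 1388, 1439.5 and 3046 in pkl and 535, 855 and 1537 in wild type (0.89 ± 0.28, adjusted p = 0.0245). EXPA7 had 545, 820.0 and 1808 in pkl and 213, 469.9 and 791 in wild type (0.90 ± 0.29, adjusted p = 0.0297). EXPA18 did not pass without wild-type replicate 4 (0.75), EXPA7 not without pkl replicate 6 (0.82), and neither without wild-type replicate 2 or pkl replicate 1, whose EXPA18 signal of 3046 lay far above the 1388 to 1587 of the other pkl arrays. EXPA4, EXPA8 and EXPA15 did not pass.

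Nuclear genes of chlorophyll synthesis were lower in pkl in 3 of 3 named cases, beside 8.69% of all probe sets. Of the 5313 probe sets whose brighter mean was between 1000 and 5000, 987 were lower. Above 5000 it was 326 of 1467. CHLI2, a subunit of magnesium chelatase, had 1659.9, 1793 and 1969 in pkl and 2271, 2554 and 3004 in wild type (-0.54 ± 0.07, adjusted p = 1.80e-06). CHLM, a methyltransferase of the pathway, had 2689, 2852 and 3349 in pkl and 3480.5, 4191 and 4716 in wild type (-0.50 ± 0.08). PORB, the light-dependent protochlorophyllide reductase, had 2945, 3759.8 and 5469 in pkl and 4869.6, 6083 and 8149 in wild type (-0.65 ± 0.15). The groups overlapped in PORB but not in CHLI2 or CHLM. Of 7 photosystem and antenna genes LHCB4.2 (-0.87) and PSBY (-0.49) fell and 5 did not pass, a share called that does not exceed the 34.0% and 35.4% of bright probe sets. In the Calvin cycle SBPASE, sedoheptulose bisphosphatase, was higher (0.36), RCA, rubisco activase, was lower (-0.34), and PRK (0.24) did not pass. RCA lost its call without pkl replicate 2, 5 or 6 or wild-type replicate 1, 3 or 6 (-0.33 to -0.29).

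Transcripts encoded in the chloroplast genome that passed were all higher in pkl. Of 69 genes 32 rose and 0 fell, where 9.87% of all probe sets rose and 8.69% fell, while 37 missed the threshold, and the median change was 0.46. Of all 5313 probe sets whose brighter mean was between 1000 and 5000, 822 rose and 987 fell. Above 5000, 194 of 1467 rose and 326 fell. psbB, a core antenna protein of photosystem II, had 2349, 3337 and 4285 in pkl and 587, 884 and 3034 in wild type (1.67 ± 0.29, adjusted p = 1.18e-04). The gene ndhG, a subunit of the chloroplast NADH dehydrogenase-like complex, had 2209, 2921 and 3382 in pkl and 624, 919.8 and 2728 in wild type (1.42 ± 0.27). In both genes the highest wild-type array exceeded the lowest pkl array. The groups did not overlap in 3 of the 69, rpl33, ndhA and rpl14, a share near the 4.95% of all probe sets in which every pkl array lay above every wild-type array. rbcL, the large subunit of rubisco, had 1223, 1535 and 1951 in pkl and 1241, 1443 and 1802 in wild type and did not pass (0.07 ± 0.11). The mean log2(signal + 16) over the 69 genes was 12.01 ± 0.20 over the pkl arrays and 11.50 ± 0.34 over the wild-type arrays (SD of 6 each). Wild-type replicate 2, the array with the low median signal, was the lowest at 10.99, and the other 5 wild-type arrays ranged from 11.33 to 11.95, against 11.84 to 12.30 in pkl. Without it 21 genes rose and the median change was 0.31, and with the share of low signals as a covariate 25 rose with a median of 0.28.

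**Figure D3:**
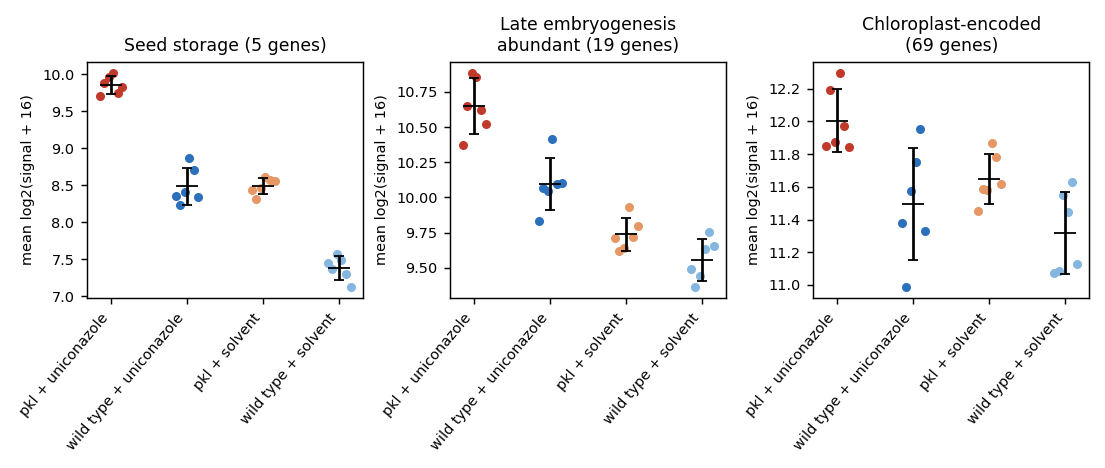
Mean log2(signal + 16) over the named members of 3 gene lists on each array, with group mean and SD (n = 6), for pkl and wild type with uniconazole and then with solvent. With uniconazole the 2 genotypes are apart in storage proteins (9.70 to 10.02 in pkl, 8.23 to 8.87 in wild type) and overlap by some arrays in the other 2 lists. With solvent they are apart in storage proteins as well (8.32 to 8.61 in pkl, 7.12 to 7.57 in wild type).

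Other lists held few named genes. DFR and UF3GT, enzymes of anthocyanin synthesis, rose by 0.80 and 0.74, both without overlap, while UGT78D2 (0.28) did not pass. DFR lost its call without pkl replicate 2 or 3 or wild-type replicate 2 or 5 (0.71 to 0.78), with an offset of 1 (0.82) and with the share of low signals as a covariate (0.58). The testa gene BAN was under the bacterial control level on every array. HIS1-3, a linker histone known from drought response, had 449.7, 538 and 726 in pkl and 105, 155 and 175 in wild type (1.86 ± 0.23), and DME, a DNA glycosylase, did not pass. PRL, the replication factor MCM7, was lower, with 1378, 1613 and 1813 in pkl and 2162, 2405 and 2682 in wild type (-0.58 ± 0.07). AGL24, the 1 named gene of the Polycomb-silenced list, was under the bacterial control level in both groups. Of 5 defensin genes PDF2.1 (2.91) and PDF1.4 (1.83) rose and 3 did not pass, beside 9.87% of all probe sets higher. PDF2.1 had 1888, 2225 and 2598 in pkl and 220.0, 296 and 311 in wild type, whereas LCR69 had 17222, 18482 and 20631 in pkl and 15539.5, 18385 and 22979 in wild type and did not pass.

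Among further genes with a symbol, BGLU19, a beta-glucosidase, had 808, 1427 and 2123 in pkl and 177, 282 and 421 in wild type (2.24 ± 0.22). CHL, a lipocalin of the chloroplast, had 178, 276 and 365 in pkl and 1153, 1368 and 1562 in wild type (-2.25 ± 0.17). The transcribed pseudogene RSU1 averaged 61.3 ± 27.2 in pkl and 362 ± 82.2 over the wild-type arrays (SD of 6 arrays each), lower by a log2 change of -2.36 ± 0.25. SPCH, the SPEECHLESS factor that starts the stomatal lineage, had 146, 243 and 328 in pkl and 466, 570.2 and 602 in wild type (-1.20 ± 0.18, adjusted p = 2.06e-05). SP1L2, of a family of microtubule-associated proteins, had 217, 254 and 323 in pkl and 503, 645 and 745 in wild type (-1.21 ± 0.15). Both were lower on every pkl array than on any wild-type array, as the rule for naming them required.

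The same genotypes without the inhibitor served as a second set of arrays. With solvent 1542 probe sets were higher in pkl (6.78% of all tested) and 1130 lower (4.97%), 11.7% in all. Of those 1542, measured on the separate uniconazole arrays, 1488 (96.5%) had a change of the same sign, with a median of 0.42 there against 0.50 with solvent. Of the 1130 lower with solvent 1094 (96.8%) did so, with medians of -0.38 with uniconazole and -0.39 with solvent. Both media called 1022 probe sets higher, 45.5% of those higher with uniconazole and 66.3% of those higher with solvent, and 793 lower, 40.1% of those lower with uniconazole and 70.2% of those lower with solvent. In 5 probe sets the calls were opposite. Being called with uniconazole and not with solvent does not show that the changes differ. The test of the difference is the interaction, the pkl effect with uniconazole minus that with solvent, and it called 32 probe sets (0.141% of all tested), 16 in each direction (0.0703%). The count was 18 without pkl replicate 2 or wild-type replicate 1, 19 without pkl replicate 4 or wild-type replicate 6 and 21 without wild-type replicate 2.

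**Figure D4:**
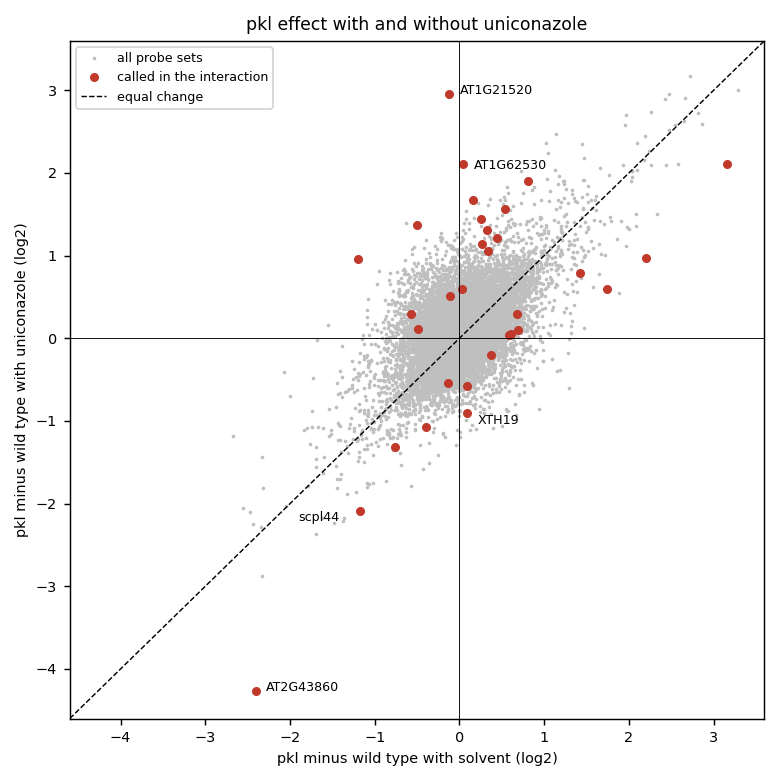
Log2 change, pkl minus wild type, with uniconazole (vertical axis) against that with solvent (horizontal axis) for 22746 probe sets. The 32 probe sets called in the interaction are red and the dashed line marks equal change. AT1G21520, at 2.96 with uniconazole and -0.13 with solvent, and AT2G43860, at -4.27 and -2.41, are 2 of them.

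AT1G21520 had the highest interaction estimate among named genes. With solvent its signals were 31.7, 42.8 and 51.6 in pkl and 27, 48.8 and 72.2 in wild type, with both group means under the bacterial control level, and it did not pass there (-0.13, adjusted p = 0.824). The pkl arrays with uniconazole were thus the 1 group with signals above that level on every array. The interaction was 3.09 ± 0.34 (SE, adjusted p = 1.24e-05). AT1G62530 had 15.8, 65.3 and 115 in pkl and 53.3, 55.8 and 75.6 in wild type with solvent, and its interaction was 2.07 ± 0.43 (adjusted p = 0.044). AT5G53990 was under the bacterial control level in every other group and had a mean of 67.8 in pkl with uniconazole (1.5039 ± 0.30, adjusted p = 0.0376). AT1G62530 and AT5G53990 were no longer called in the interaction under several of the alternatives, among them an offset of 1, quantile normalization and the loss of single arrays such as pkl replicate 2 (2.05 and 1.46).

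The interaction of AT1G21520, AT3G18570, XTH19 and scpl44 passed under every alternative run. AT3G18570 had 1127, 1369 and 1798 in pkl and 418, 458 and 728 in wild type with uniconazole, and 211, 257 and 401 in pkl and 198, 222 and 269.8 in wild type with solvent. Its change was 1.45 with uniconazole and 0.25 with solvent, and the interaction was 1.2004 ± 0.21 (adjusted p = 0.0109). AT5G47130 changed by 1.57 with uniconazole and by 0.54 with solvent (1.03 ± 0.20, adjusted p = 0.0293), and the interaction was lost without pkl replicate 2, 3 or 4 or wild-type replicate 1, 2 or 6 (0.98 to 1.02). LEA had 4011, 4244 and 5559 in pkl and 1547, 2083 and 2476 in wild type with uniconazole, and 1218, 1590.2 and 1951 in pkl and 1127, 1306 and 1708 in wild type with solvent (0.87 ± 0.17, adjusted p = 0.0223), and without a variance trend its interaction did not pass (adjusted p = 0.067). OLEO3 was higher in pkl with uniconazole (0.29) and lower with solvent (-0.57, adjusted p = 1.52e-04), with 1119, 1359 and 1734 in pkl and 1598, 2052 and 2577 in wild type on solvent, and the interaction was 0.86 ± 0.14 (adjusted p = 0.00371).

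In the other direction AT2G43860 fell by 4.27 with uniconazole and fell by 2.41 with solvent, where it had 69.7, 118 and 169 in pkl and 505, 659.8 and 1026 in wild type. Its interaction was -1.86 ± 0.36 (adjusted p = 0.0256), and with an offset of 64 it was -0.84 and did not pass (adjusted p = 0.411), the pkl signals with uniconazole being under the bacterial control level. Without pkl replicate 2 or wild-type replicate 1 or 6 it did not pass either (-1.82 to -1.70). XTH19 had 5543, 5891 and 6477 in pkl and 4488, 5972 and 6388 in wild type with solvent, where it did not pass (0.09), and its interaction was -0.99 ± 0.17 (adjusted p = 0.00902). scpl44 had 5358, 6632 and 8080.5 in pkl and 12543, 14722 and 16858 in wild type with solvent (-1.18), and its interaction was -0.91 ± 0.14 (adjusted p = 0.00211). AT5G62340 (-0.67 ± 0.14) was lower in pkl with uniconazole (-0.58) and did not pass with solvent (0.09). AT3G57070 (-0.59 ± 0.12) was higher in pkl with solvent (0.69) and did not pass with uniconazole (0.10). In both genes the interaction was close to the threshold (adjusted p = 0.044) and was lost under most of the left-out arrays.

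**Figure D5:**
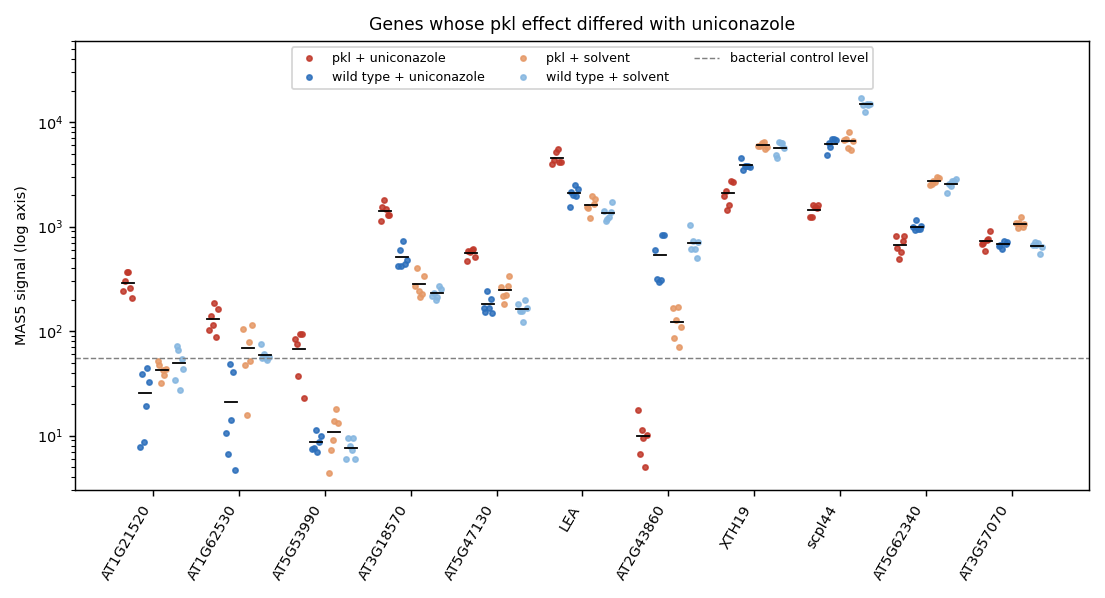
MAS5 signals (log axis) of 11 genes called in the interaction, up to 6 in each direction by size. The groups are pkl and wild type with uniconazole and then pkl and wild type with solvent. Points are the 6 arrays of a group, black bars the means and the dashed line the bacterial control level of 54.9. AT1G21520 is above the line on every array of pkl with uniconazole, 205 to 371, and AT2G43860 is below it on every array of that group.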

How the data were processed

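Transcripts of germinating seeds were measured on 24 ATH1 arrays, and the 12 with uniconazole, 6 pkl and 6 wild type, are compared here. The authors deposited a table of linear intensity values, 1 per probe set and array. MAS5 made them, per the submitters' processing notes. No version was given in the sources used here. After trimming 2% at each end, every array had a mean of 1000.1.

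The table holds 22810 probe sets, of which 64 are Affymetrix controls and were not tested. GEO's platform annotation paired 13513 of the other 22746 with 1 gene and 503 with several. It did not list 8730, which stay unnamed here. Current symbols came from a RefSeq table (TAIR10.1) that held 13436 of the 13513. The deposited table names no genome build, so no coordinates are given.

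Tests used log2(signal + 16), all 4 groups in 1 limma fit (limma 3.58.1, R 4.3.3; lmFit, then eBayes with trend) with 20 degrees of freedom left for the spread, two-sided p-values and Benjamini-Hochberg adjustment over 22746 probe sets with a threshold of 0.05. Every adjusted p of a gene is from this fit. The fit was also run on simulated data in which each probe set varied independently. Such data hold no shift shared by a whole array, so they do not test the calls against one. A list counts 1 probe set per gene, the one with the highest mean over the 24 arrays.

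Genes named for the uniconazole comparison had 1 gene per probe set, an adjusted p under 0.05, groups that did not overlap and a brighter mean above 54.9, the 95th percentile of 648 values of 27 bacterial control probe sets. They were the 12 highest and 12 lowest locus-only genes, the 8 highest and 8 lowest with a symbol, and the 5 highest and 5 lowest with a mean of at least 2000. For the interaction up to 6 genes in each direction were named. These had 1 gene per probe set, an adjusted p of the interaction under 0.05 and the brightest group mean above 54.9, whether or not groups overlapped. Members of the lists are named beside these, and psbB and ndhG were chosen for their size. The members and lists were chosen with earlier results of these data known.

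Alternatives were offsets of 1 and 64, arrays scaled to one median, quantile normalization, a filter on low signal, no variance trend, the replicate number as a block, only the 12 uniconazole arrays, the share of low signals as a covariate, and leaving out each replicate. The number of arrays limits the precision.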

Additional observations from a re-analysis of the deposited data

Results flagged for a closer look

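Of 182 sets of 6 arrays examined for a value far from the other 5, 9 held one, and chance alone gives about 1 in 20. The number given is the gap to the nearest array over the range of the group, read against Dixon's limit for 6 values. In pkl with uniconazole EXPA18 had 3046 on replicate 1 and 1388 to 1587 on the others (0.831), AT4G36600 1939.9 on replicate 1 and 2418 to 2653 on the others (0.704), AT1G44050 7.9 on replicate 3 and 45.2 to 76.6 on the others (0.694), and AT4G33180 95.7 on replicate 1 and 65.3 to 75.4 on the others (0.631). In wild type with uniconazole replicate 2 was the lowest in 3 genes. AIM1 had 2590.0 there and 3543 to 4008 on the others (0.717), AT1G72800 479 and 734 to 875 (0.707), and AT2G18980 1714.5 and 2658 to 3379.7 (0.645). AT5G62340 had 1157 on replicate 3 and 931 to 1003 on the others (0.656), and XTH19 4528 on replicate 1 and 3489.6 to 3823 on the others (0.65).

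The pkl effect differed between the media, by the interaction of the limma fit, in 12 genes described above. It was more positive with uniconazole in AT1G21520 (3.09), AT1G62530 (2.07), AT5G53990 (1.504), AT3G18570 (1.2004), AT5G47130 (1.03), LEA (0.87) and OLEO3 (0.86), and more negative in AT2G43860 (-1.86), XTH19 (-0.99), scpl44 (-0.91), AT5G62340 (-0.67) and AT3G57070 (-0.59). AT1G13930 (0.62) and AT1G56300 (0.60), not described above, were called in the interaction as well. The remaining calls were of probe sets that the platform annotation does not list.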

How the results depend on the processing

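The counts of 2246 higher and 1976 lower probe sets stayed within 1.5 times under every alternative run, and no called change of a named gene turned its sign. The median change of all probe sets did, as given above, and with arrays scaled to one median so did the list medians of expansins (-0.06, against 0.02) and pathogen response (-0.02, against 0.06). With an offset of 64, 241 probe sets reached a log2 change of 1, against 481. Quantile normalization gave 2004 higher and 2298 lower, and scaling to one median gave 1570 and 2832. The interaction called 32 probe sets, against 20 without a variance trend, 19 with the share of low signals as a covariate, and 18 to 38 when 1 uniconazole array was left out. It was 18 to 21 without pkl replicate 2 or 4 or wild-type replicate 1, 2 or 6. The change with uniconazole was rerun for 89 genes, all called there but AT3G57070. Of these 10 lost the call under at least 1 alternative, in 56 of 1868 values: AT1G03890, OLEO3, COR15A, DELTA-VPE, EEL, EXPA7, EXPA18, XTH33, RCA and DFR. Of 11 named interaction genes 7 lost the interaction call in 66 of 220 values, and AT1G21520, AT3G18570, XTH19 and scpl44 kept it under every alternative run. The interaction of OLEO3 was not rerun under the alternatives. The causes were not tested. Counts of list members under the alternatives were added after seeing the data.

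The labels do not say what a replicate number shares. Over all probe sets same-numbered samples had correlations of deviations between -0.0419 and 0.158, over 0.1 in 2 of 6 pairs, and 3 of 6 correlating best with their own number. In the expansins, however, replicate 1 was the highest and replicate 2 the lowest in both pkl and wild type with uniconazole. With a replicate block 2486 probe sets were higher, 2180 lower, 483 changed by at least 1 and 33 were called in the interaction, EXPA7 and EXPA18 passed again, and 42 chloroplast-encoded genes rose, against 32. Signals at or under 54.9 give bounds only.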

Other observations

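By chromosome the share of 1-gene probe sets called with uniconazole was similar, between 8.16% (chromosome 2) and 10.2% (chromosome 4) higher in pkl and between 6.71% (chromosome 5) and 7.74% (chromosome 1) lower. Genes with a 1-gene probe set were set in chromosome order, so that genes not measured this way can lie between neighbours. In 6 pairs that follow each other in this order both members were higher in pkl by at least 1 on the log2 scale, with groups that did not overlap. AT1G54860 and AT1G54870 rose by 2.03 and 1.90, BGLU19 and AT3G21380 by 2.24 and 1.31, AT3G22550 and AT3G22570 by 1.21 and 1.65, AT5G43770 and APS4, an ATP sulphurylase gene, by 1.67 and 1.47, AT3G18560 and AT3G18570 by 1.02 and 1.45, and AT5G53990 and AT5G54000 by 1.67 and 1.79. These pairs were picked for their changes, so they have no test. In the last pair the signals with uniconazole averaged 67.8 in pkl and 8.62 in wild type for AT5G53990, and 94.1 in pkl and 16.6 in wild type for AT5G54000.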
